A study of Mus musculus with 8 samples.

Results

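The genes described here encode the perilipins and other structural proteins of the lipid droplet: Plin1, Plin2, Plin3, Plin4, Plin5, Cidec, Fitm1, Fitm2 and Bscl2. They were taken by gene name from the deposited table, in which all 9 were found among 37417 genes. Their transcripts were measured by RNA sequencing of epididymal fat, the visceral fat pad beside the epididymis, in 4 wild-type and 4 Atg3 knockout male mice. All were C57Bl/6 mice fed chow, and per the labels all received tamoxifen, the drug that switches on the CreERT2 recombinase. The knockout genotype is given as Adiponectin-Cre ERT2-Atg3 flox/flox: the adiponectin promoter is active in adipocytes, and the other cells of the fat pad are not its targets. The label of the controls gives WT and no further allele, and the sources used here give neither ages nor the time after tamoxifen. The comparison asks how transcripts of the droplet coat and of droplet assembly differ between fat with and without adipocyte Atg3, the enzyme that attaches LC3-family proteins to phosphatidylethanolamine during autophagosome formation.

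A lipid droplet is a core of triglyceride and sterol ester under a single layer of phospholipid, and in a white adipocyte 1 droplet fills most of the cell. Perilipins coat that surface and control the access of lipases to the core. CIDEC sits where droplets touch and moves lipid from the smaller to the larger droplet, while the FIT proteins and seipin act in the endoplasmic reticulum, where droplets bud. Droplets are also a substrate of autophagy in several cell types.

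The libraries held 10986375 to 17128811 counts in wild-type and 12952190 to 21688464 in knockout fat. Levels are given in CPM, counts scaled to a common library size with TMM, where a gene is compared between libraries, and in FPKM, which also divides by exonic length, where genes are compared with each other. Differences are log2 fold changes (log2FC) of knockout over wild-type fat, each with its standard error (SE), and values of single libraries stand in the order of the replicate numbers, 1 to 4. Atg3 itself had 49.1, 44.5, 53.6 and 53.5 CPM in the wild-type libraries and 30.6, 32.2, 30.8 and 27.8 CPM in the knockout libraries, a fall in whole fat (log2FC -0.73, edgeR adjusted p = 0.0168). The groups did not overlap, and the log2FC of Atg3 lay between -0.80 and -0.69 over 19 alternative settings, but the call was lost in 6 of them: with a replicate block (adjusted p = 0.111), without wild-type library 1 (0.0543), wild-type library 4 (0.0705) or knockout library 2 (0.0745), without both knockout libraries 2 and 3 (0.0989), and when the mean duct marker level was a covariate (0.257). The summed level of 12 adipocyte markers lay between 34527 and 42822 CPM in wild-type and between 28619 and 34499 CPM in knockout libraries, with 0 passing the test and none at 0. In 5 of the 12 every knockout library lay below every wild-type library, as in 4.54% of all genes tested. The 10 markers of duct epithelium, a tissue that lies beside this fat pad, summed to 8.37 to 19.0 CPM in wild-type libraries and to 30.2, 461, 467 and 40.7 CPM in the knockout libraries. Macrophage markers, of cells that also express Plin2, summed to 1350 to 2079 CPM in wild-type and 1514 to 2251 CPM in knockout fat, with overlap, and endothelial markers to 1423 to 1680 and 1204.5 to 1373 CPM, without. By their duct markers, knockout libraries 2 and 3 stand apart, and for some of the genes the estimates are given with and without them. Every knockout library had a higher duct marker sum than every wild-type library. A fit with the mean duct marker level as covariate therefore cannot separate duct tissue from genotype. The mitochondrial share of counts was 3.05 to 4.93% in the wild-type and 5.03 to 6.08% in the knockout libraries, and its part in the results was not tested. The p-values set each genotype difference against the spread between these libraries. In bulk fat fewer cells of a type and less RNA per cell cannot be told apart.

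In wild-type fat the genes spanned a wide range of levels. Cidec stood highest with 2082 ± 405 FPKM (SD, n = 4), which placed it 17th among all genes of the table. Plin4 and Plin1 followed with 815 ± 137 and 787 ± 129 FPKM at ranks 37 and 39, and their ranges over libraries overlapped. Far below came Plin2 with 89.5 ± 4.55 FPKM, Fitm2 with 61.4 ± 2.07, Bscl2 with 41.6 ± 6.99 and Plin3 with 35.8 ± 6.22 FPKM. The ranges of Plin3 and Bscl2 overlapped, whereas Plin2 lay above Fitm2 in every wild-type library and Fitm2 above Bscl2. Plin5 reached 5.22 ± 1.21 FPKM, and Fitm1, whose protein is known mainly from skeletal and heart muscle, 0.0991 FPKM.

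In knockout fat Cidec remained the highest of the genes, with 2921 ± 516 FPKM at rank 15. Plin1 came next with 644 ± 89.4 FPKM at rank 47, and Plin4 was at 447 ± 33.7 FPKM and rank 70. Plin4 lay below Plin1 in all 4 knockout libraries and above it in 2 of the 4 wild-type libraries. The order of the others was that of wild-type fat.

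Part of this order depends on the length used. The deposited FPKM divide by the exonic length of the table, which for Bscl2 is 5897 bases, while its longest coding transcript in the GENCODE annotation has 1962 bases. With the length of the longest coding transcript Bscl2 had 118, 101, 130.4 and 151 FPKM in wild-type fat, above Fitm2 (61.4 ± 2.07, SD, n = 4) in every library and below Plin2 (167 ± 8.47). Plin1, whose longest coding transcript has 2817 bases against 1916 in the table, then had 535 ± 88.0 FPKM, below Plin4 in all 4 wild-type libraries, and the Plin4 to Plin1 ratio was 0.958, 0.951, 1.22 and 0.9998 in the knockout libraries. Cidec remained the highest with either length. Comparisons of the same gene between genotypes do not depend on the length.

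**Figure D1:**
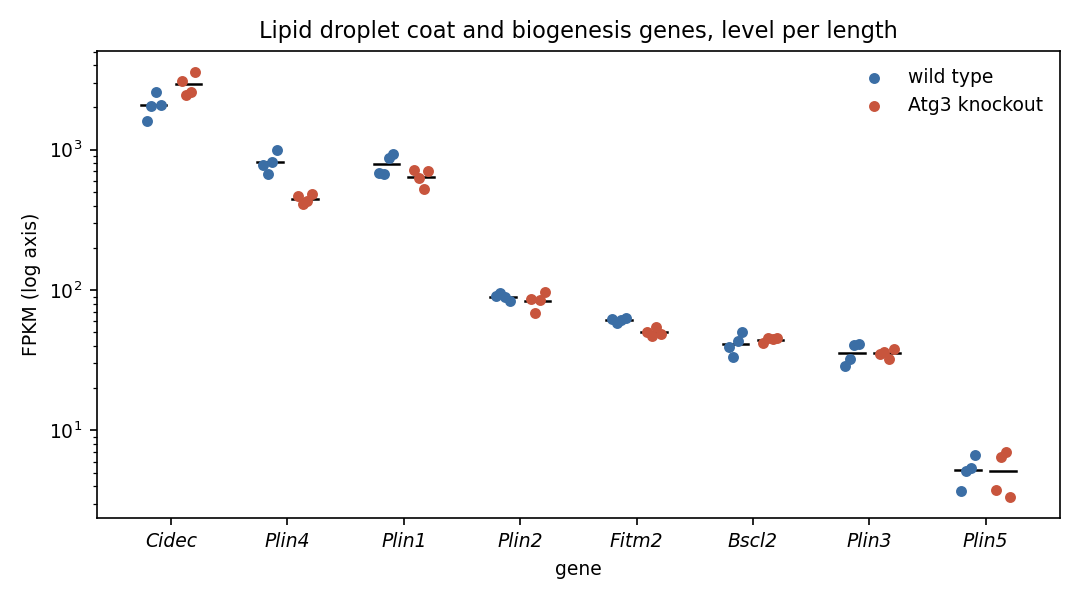
Level per length (FPKM, log axis) of 8 of the 9 genes in each library, ordered by wild-type level; points are libraries and bars the mean of 4. Cidec, Plin4 and Plin1 stand above 400 FPKM in all libraries, and the Plin4 points of the knockout libraries lie below all 4 wild-type points. Fitm1, near 0, is not drawn.

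Of the 9 genes, 8 had enough reads for the test and 0 passed an adjusted p of 0.05 in edgeR's quasi-likelihood test, against 60 of the 14800 genes tested (0.405%). Unadjusted, 2 of the 8, Plin4 and Fitm2, had a p under 0.05, as did 16.2% of all genes. The same 2 genes were the ones whose wild-type and knockout libraries did not overlap, both lower in knockout fat, as were 4.54% of all genes; 0 members were separated upward, against 4.32% of all genes, and 8.86% were separated in either direction. DESeq2 called 2 of the members, Plin4 and Fitm2, and 810 of the 14800 genes (5.47%). The estimates were negative for 6 genes and positive for 2, Cidec and Bscl2, with a median log2FC of -0.08 against -0.01 over all genes tested.

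**Figure D2:**
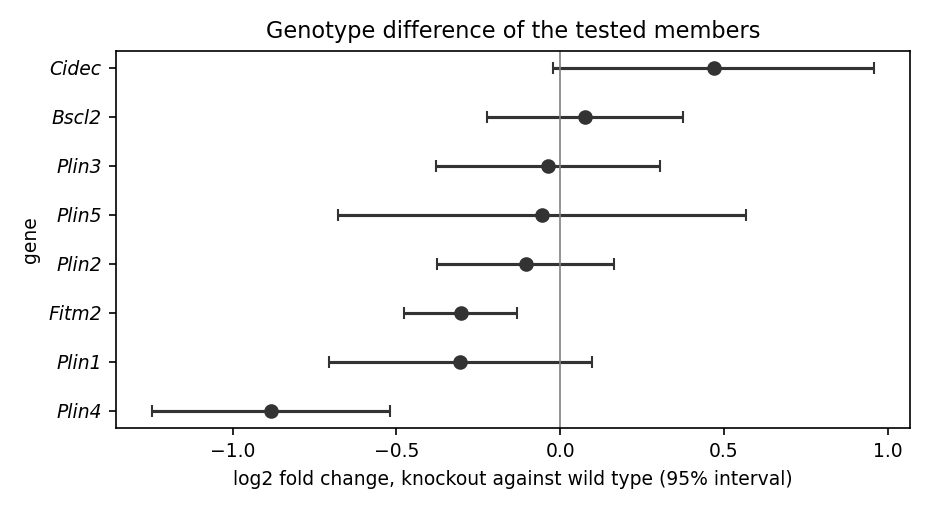
Log2 fold change, knockout against wild type, of the 8 genes tested, with 95% intervals from edgeR's fit, each interval for its gene alone. The intervals of Plin4 (-1.25 to -0.52) and Fitm2 (-0.48 to -0.13) lie below 0, and the other 6 include 0.

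Plin4 had the largest difference among them. The protein is a perilipin of white fat and muscle, known for a long array of repeats that fold into an amphipathic helix on the droplet surface. Plin4 had 4229, 3861, 5045 and 5805 CPM in the wild-type libraries and 2665.5, 2337, 2380 and 2899 CPM in the knockout libraries. Every knockout library lay below every wild-type library, and the spread was wider in wild-type fat. The means were 4735 ± 868 and 2570 ± 263 CPM (SD, n = 4), 1.84-fold apart (log2FC -0.88, SE 0.16, edgeR adjusted p = 0.0630), so the difference did not pass the threshold; its unadjusted p ranked 89th among all genes. The adjusted p was 7.818e-07 with DESeq2 and 0.0393 in edgeR without TMM scaling. Without knockout libraries 2 and 3 the log2FC was -0.76 (edgeR adjusted p = 0.382), and a fit with the mean duct marker level as covariate gave -0.64 (SE 0.27, adjusted p = 0.599). Duct marker levels and genotype are confounded in the fit with the covariate, so it cannot separate them.

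Plin4 lies on chromosome 17 (56100590 to 56109802, minus strand, build mm10), a region it shares with Plin5 (56111600 to 56117596) and Plin3 (56278961 to 56290511), both on the same strand. Between Plin4 and Plin5 are 1797 bases, and between Plin5 and Plin3 161364 bases with 8 other genes. The log2FC of these neighbours were -0.06 for Plin5 and -0.04 for Plin3, beside -0.88 for Plin4. The last 7 bases of Plin4 overlap Hdgfrp2 on the opposite strand, which had 316 to 675 reads per library against at least 31537 for Plin4.

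The repeats of Plin4 bear on how its reads were placed, and are therefore shown. In the GENCODE annotation of build GRCm38 the coding sequence of Plin4 holds 4212 bases with the stop codon. A repeat with a period of 99 bases, or 33 codons, forms 25 units over exons 5 to 6 of 9 (chromosome 17, 56104081 to 56107149), and these make up 58.8% of the coding sequence. Pairs of units are 62.6 to 100% identical, with a median of 77.3%. Below are the most frequent base at each position, a pair of identical units, one in each exon (unit 8 at 56106358 to 56106456 in exon 5, unit 13 at 56105269 to 56105367 in exon 6), and unit 25 (56104081 to 56104179), the unit least like the consensus at 73.7% identity. All are read 5′ to 3′ on the minus strand, and capitals mark bases that differ from the consensus.
Plin4 consensus: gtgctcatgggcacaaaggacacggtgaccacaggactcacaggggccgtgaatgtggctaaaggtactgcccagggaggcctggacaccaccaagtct
Plin4 unit 8: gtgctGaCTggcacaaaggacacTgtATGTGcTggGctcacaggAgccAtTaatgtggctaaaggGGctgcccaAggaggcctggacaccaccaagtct
Plin4 unit 13: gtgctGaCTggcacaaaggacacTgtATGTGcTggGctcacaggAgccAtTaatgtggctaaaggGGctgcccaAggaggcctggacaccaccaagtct
Plin4 unit 25: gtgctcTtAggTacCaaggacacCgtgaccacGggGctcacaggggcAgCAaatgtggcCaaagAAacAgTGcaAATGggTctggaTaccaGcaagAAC
Units 8 and 13 carry the same departures from the consensus, so a read that falls inside either cannot be assigned to 1 of them. The reads were of 50 cycles. Of the 5707 windows of 50 bases in the Plin4 transcript, 995 occur in it more than once (17.4%), and within the units 41.0% do. None occurs in a transcript of another gene. The sources used here do not say how reads with several matches were counted, and the part of these windows in the result was not tested. In the other 8 genes no window of 50 bases was repeated within the transcript.

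Plin1 encodes the main coat protein of the adipocyte droplet, which holds the lipase co-activator ABHD5 at rest and frees it when phosphorylated after adrenergic stimulation. The gene lies on chromosome 7 (79721163 to 79732776, minus strand). Plin1 had 1231, 1299, 1771 and 1801 CPM in the wild-type libraries and 1361, 1202, 957 and 1419 CPM in the knockout libraries. Wild-type libraries 3 and 4 were the highest and knockout library 3 the lowest, and the groups overlapped. The means were 1526 ± 302 and 1235 ± 207 CPM (log2FC -0.31, SE 0.18, edgeR adjusted p = 0.440), with a 95% interval from -0.71 to 0.10. Without knockout libraries 2 and 3 the log2FC was -0.12 (edgeR adjusted p = 0.901), and with the duct marker covariate it was 0.06.

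Plin2, on chromosome 4 (86648385 to 86670060), encodes the perilipin found in most cell types, a protein that is degraded when it is not bound to a droplet. Plin2 had 299, 336, 334 and 299 CPM in the wild-type libraries and 300.3, 241, 285 and 353 CPM in the knockout libraries. Knockout libraries held both the lowest and the highest value, around means of 317 ± 20.9 and 295 ± 46.5 CPM. The log2FC was -0.11 (SE 0.12, edgeR adjusted p = 0.714, 95% interval -0.38 to 0.17), and 0.06 without knockout libraries 2 and 3.

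Plin3 encodes a perilipin that moves from the cytosol onto newly formed droplets. Plin3 had 58.8, 70.1, 93.2 and 91.0 CPM in the wild-type libraries and 74.9, 77.9, 66.7 and 85.7 CPM in the knockout libraries. All knockout values fell inside the wild-type range. The log2FC was -0.04 (SE 0.15, edgeR adjusted p = 0.930), with an interval from -0.38 to 0.30, or 0.769 to 1.235 as a fold; its sign changed in 5 of the 19 alternative settings.

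Plin5 encodes the perilipin of oxidative tissues, where it ties droplets to mitochondria. Plin5 had 7.31, 10.8, 12.0 and 14.1 CPM in the wild-type libraries and 7.77, 13.4, 14.1 and 7.35 CPM in the knockout libraries. The knockout libraries fell into a low pair, 1 and 4, and a high pair, 2 and 3, which are also the 2 libraries with the high duct markers. With all libraries the log2FC was -0.06 (SE 0.28, edgeR adjusted p = 0.943), without libraries 2 and 3 it was -0.54 (adjusted p = 0.629), and with the duct marker covariate -0.86 (adjusted p = 0.599). The 95% interval, -0.68 to 0.57, was the widest of the 8 genes.

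Cidec, on chromosome 6 (113424633 to 113435760, minus strand), was the only member with an estimate above 0.10. Its protein enlarges droplets and is needed for the large droplet of white adipocytes. Cidec had 2815, 3802, 5145 and 3937 CPM in the wild-type libraries and 5708, 4563, 4525 and 6919 CPM in the knockout libraries. Wild-type library 3 lay above knockout libraries 2 and 3, so the groups overlapped, while the other 3 wild-type libraries lay below every knockout library. The means were 3925 ± 955 and 5429 ± 1135 CPM, 1.38-fold apart (log2FC 0.47, SE 0.22, edgeR adjusted p = 0.330, 95% interval -0.02 to 0.96). Without knockout libraries 2 and 3 the log2FC was 0.70 (adjusted p = 0.524) and with the duct marker covariate 0.90 (adjusted p = 0.542). The estimate was positive in all 19 alternative settings and passed the threshold in none of them, DESeq2 included.

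**Figure D3:**
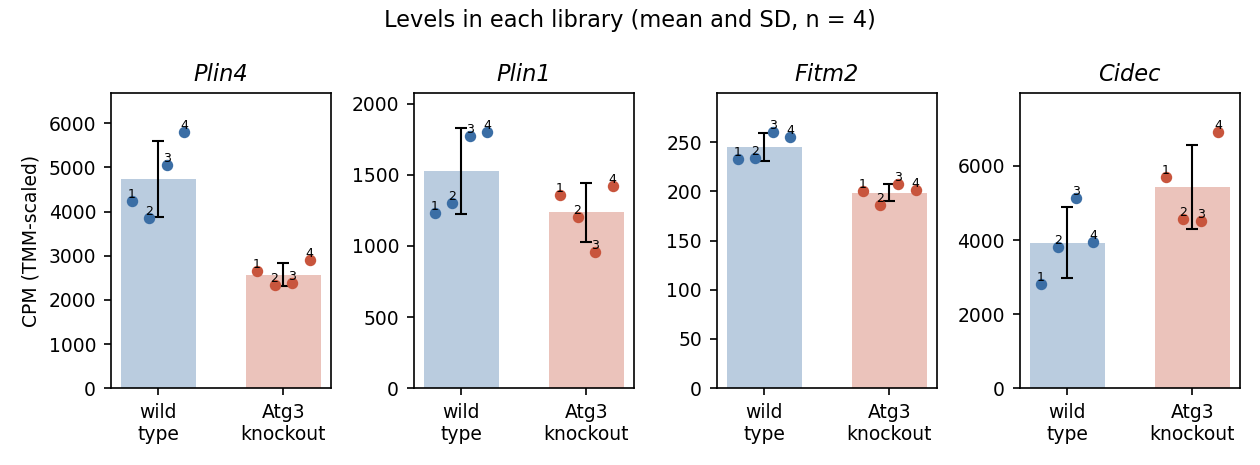
Levels (CPM, TMM-scaled) of Plin4, Plin1, Fitm2 and Cidec; bars are means of 4 libraries, whiskers the SD, and points single libraries with their replicate number. Plin4 and Fitm2 show no overlap between genotypes, Plin1 and Cidec do, and each panel has its own axis from 0.

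Fitm2 encodes the FIT protein of the endoplasmic reticulum that fat and most other tissues express, a diphosphatase needed for normal budding of droplets. It lies on chromosome 2 (163466378 to 163472629, minus strand). Fitm2 had 233, 234, 260.4 and 255 CPM in the wild-type libraries and 200.3, 186, 207 and 202 CPM in the knockout libraries. The values were tight and the groups apart, with means of 245 ± 14.3 and 199 ± 8.97 CPM (SD, n = 4). The difference was 1.23-fold (log2FC -0.30, SE 0.08) and did not pass after adjustment (edgeR adjusted p = 0.128; DESeq2 0.00218). Its log2FC stayed between -0.33 and -0.26 over the 19 alternatives.

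Fitm1, the muscle-type FIT gene on chromosome 14 (55575673 to 55576952), had 1, 0, 1 and 3 reads in the wild-type libraries and 3, 2, 4 and 7 reads in the knockout libraries. It was left out by the filter on low counts, and at 5 and 16 reads per group no difference could be read. A count of 0 in wild-type library 2 allows up to 0.175 CPM, counting error only. Of the Fitm1 transcript, 6.51% of windows of 50 bases are also held by Gm15932, an antisense gene.

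Bscl2 encodes seipin, which forms a ring in the endoplasmic reticulum at sites of droplet assembly and whose loss causes congenital lipodystrophy. The gene lies on chromosome 19 (8837466 to 8848683, plus strand). Bscl2 had 219, 199, 273 and 300 CPM in the wild-type libraries and 246, 267, 254 and 279 CPM in the knockout libraries. The 4 knockout values lay within the wild-type range (248 ± 46.7 and 261 ± 14.5 CPM), for a log2FC of 0.08 (SE 0.13, edgeR adjusted p = 0.820, 95% interval -0.22 to 0.37). Bscl2 overlaps Gng3 on the opposite strand by 1781 bases, but Gng3 had only 15 to 42 reads per library against at least 2550 for Bscl2. Of the windows of 50 bases in the Bscl2 transcript, 28.2% also occur, read on either strand, in transcripts of Gng3 or of AC129217.1, the highest such share among the 9 genes. Whether this affected the Bscl2 counts depends on the use of strand and the treatment of shared reads, which the sources used here do not give.

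The make-up of the perilipin transcripts was then described within each library, as the share of each gene in the summed FPKM of the 5 perilipins. These shares and ratios were chosen after the values had been seen, so they carry no test. Plin4 made up 49.2, 45.3, 45.1 and 48.4% of the sum in the wild-type libraries and 35.7, 35.5, 40.1 and 36.3% in the knockout libraries. Plin1 made up 43.0, 45.7, 47.5 and 45.1% in the wild-type and 54.8, 54.8, 48.4 and 53.4% in the knockout libraries. On the deposited lengths the 2 genes thus had nearly equal shares in wild-type fat, and Plin1 had the larger share in each knockout library; the level of a share depends on the lengths used. The remaining perilipins were minor throughout: Plin2 averaged 5.28% and 6.92%, Plin3 2.06% and 2.92%, and Plin5 0.301% and 0.439%. The summed level itself was 1732 ± 260 FPKM in wild-type and 1216 ± 121 FPKM in knockout fat (SD, n = 4), and the ranges did not overlap.

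Ratios between genes of the same library do not depend on how libraries are scaled, and another gene length multiplies a ratio by the same factor in every library. The Plin4 to Plin1 ratio of FPKM was 1.14, 0.990, 0.948 and 1.07 in the wild-type libraries and 0.652, 0.647, 0.828 and 0.680 in the knockout libraries. Cidec to Plin1 was 2.36, 3.02, 2.998 and 2.26 in the wild-type and 4.33, 3.92, 4.88 and 5.03 in the knockout libraries. Cidec to Plin4 was 2.06, 3.05, 3.16 and 2.10 in the wild-type and 6.64, 6.05, 5.90 and 7.40 in the knockout libraries. All 3 ratios separated the genotypes, and the last had means of 2.60 ± 0.593 and 6.50 ± 0.682. This last ratio pairs the members with the highest and the lowest estimate, and the ratios were chosen with these values known. Cidec and Plin1 each overlapped between genotypes in CPM. How many ratios of other gene pairs separate the genotypes was not computed. Without any 1 library, or without knockout libraries 2 and 3, the difference in the Cidec to Plin4 ratio stayed between 3.60 and 4.43. For Plin2 to Plin1 the genotypes overlapped, with means of 0.117 and 0.132.

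**Figure D4:**
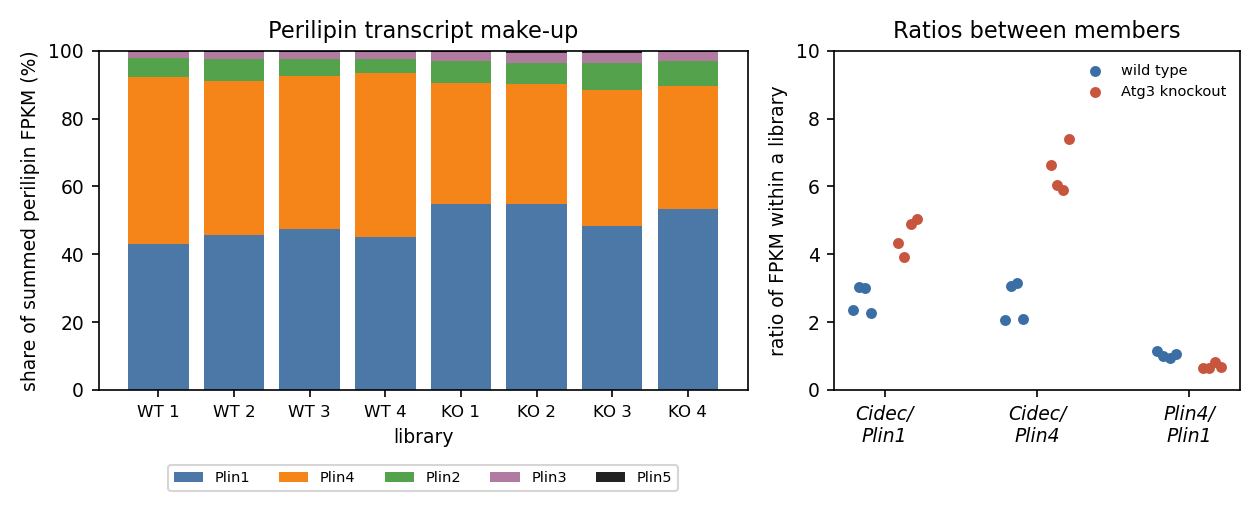
Left, share (%) of each perilipin in the summed perilipin FPKM of each library; right, ratios of FPKM between Cidec, Plin1 and Plin4 within each library, 1 point per library. The Plin4 share is 45.1 to 49.2% in the wild-type and 35.5 to 40.1% in the knockout libraries. All 3 ratios, chosen after the values had been seen, separate the genotypes.

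Because the adipocyte markers as a whole had lower estimates in knockout fat, the genes were also set against them, again after the values had been seen and with no test. The mean log2 CPM of the 12 markers was 10.09 ± 0.143 in the wild-type and 9.73 ± 0.149 in the knockout libraries, lower in each knockout library. Relative to this mean, Plin1 differed by 0.06 between genotypes and Fitm2 by 0.06, both with overlap, as did Adipoq by -0.07. Plin4 was lower by this measure too, at 2.12, 1.85, 2.02 and 2.42 in the wild-type and 1.56, 1.46, 1.70 and 1.65 in the knockout libraries, a log2 difference of -0.51. Cidec was higher, at 1.53, 1.83, 2.05 and 1.86 in the wild-type and 2.66, 2.43, 2.62 and 2.91 in the knockout libraries, a log2 difference of 0.84. Neither gene overlapped between genotypes on this scale, and leaving out libraries kept the differences between -0.59 and -0.41 for Plin4 and between 0.74 and 0.97 for Cidec. The marker mean itself differed by -0.36, which shifts every gene upward on this scale by the same amount. Cidec overlapped between genotypes in CPM. The share of all genes that separate on this scale was not computed. Bscl2 differed by 0.45, Plin3 by 0.34, Plin5 by 0.28 and Plin2 by 0.24, all with overlap.

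To see which genes follow the same pattern over the 8 libraries, log2 CPM values were centred and compared by their root mean square difference (RMS, in log2 units) among 10178 genes of at least 10 CPM. Closest to Plin1 was Lipe, which encodes hormone-sensitive lipase, at 0.0472, against a spread of Plin1 itself of 0.280; next were Epb4.1l2 (0.0655) and Abcd2 (0.0741). Plin4, with a spread of 0.472, had no neighbour as close: Pank3, a pantothenate kinase, stood at 0.138, Heph, the copper oxidase hephaestin, at 0.151 and Rxrg, a retinoid X receptor, at 0.153. For Cidec (spread 0.370) the nearest were Htatip2 (0.0789) and Ccng1 (0.0944), and for Fitm2 (spread 0.165) Sh3glb2 (0.0390). Among the members themselves the closest pair was Plin3 and Bscl2 at 0.138, while Plin4 lay 0.311 from Plin1 and 0.710 from Cidec. By rank among the genes compared, Bscl2 was only 404th nearest to Plin3, and Plin3 589th nearest to Bscl2. Plin1 was 199th and Cidec 9486th nearest to Plin4. Values were centred over both genotypes together, so the genotype difference of a gene is part of these distances. Pank3, Heph and Rxrg had log2FC of -0.68, -0.85 and -0.77, beside -0.88 for Plin4. All genes of a library also share its depth and cell composition. Each gene named as nearest is the closest of 10178, and the distances are descriptions only.

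Promoter sequence is shown for Plin4 and Cidec, the genes with the lowest and the highest estimate, as RefSeq gives it for build GRCm38.p6, 5′ to 3′ on the minus strand and without annotated exon bases. Capitals mark the letters TATAA. The Plin4 stretch is chr17:56109804-56110032, and the Cidec stretches, chr6:113435761-113436010 and chr6:113434765-113435014, precede its 2 annotated start regions.
Plin4 promoter: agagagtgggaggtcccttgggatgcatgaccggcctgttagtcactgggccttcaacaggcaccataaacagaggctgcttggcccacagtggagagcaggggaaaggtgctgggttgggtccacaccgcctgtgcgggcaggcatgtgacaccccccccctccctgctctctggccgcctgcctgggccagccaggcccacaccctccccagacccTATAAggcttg
Cidec promoter 1: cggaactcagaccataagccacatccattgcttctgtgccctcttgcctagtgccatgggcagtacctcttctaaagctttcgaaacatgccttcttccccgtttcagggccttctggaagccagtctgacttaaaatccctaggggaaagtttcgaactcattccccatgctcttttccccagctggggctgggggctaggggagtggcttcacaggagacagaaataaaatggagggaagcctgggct
Cidec promoter 2: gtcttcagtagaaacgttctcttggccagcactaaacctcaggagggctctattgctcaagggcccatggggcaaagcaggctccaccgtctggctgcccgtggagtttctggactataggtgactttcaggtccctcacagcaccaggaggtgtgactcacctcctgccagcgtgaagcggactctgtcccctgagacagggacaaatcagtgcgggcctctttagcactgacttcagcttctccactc
The letters TATAA (the TATA box), CCAAT (the CCAAT box), CACGTG (an E-box) and AGGTCA (a nuclear receptor binding unit) were searched on both strands over the 250 bases before each start. Plin4 held TATAA 32 to 28 bases before its RefSeq start. Its neighbour Plin5 held it 27 to 23 bases before its upstream RefSeq start and not before the other. TATAA occurs at any position in 22.8% of 32851 windows of the same length. GENCODE transcripts of Plin4 begin further upstream, at base 56109802 or 56109803, so the TATAA lies closer to those starts. A GENCODE transcript of Plin5 begins at base 56117596, and the Plin5 TATAA lies inside its exon. Plin4 also held CCAAT 18 to 14 bases before its RefSeq start. This lies in the 21 bases of the window that belong to an annotated exon and are not printed. CCAAT occurs in 33.9% of windows. The pair of Cidec windows held none of the 4, of which CACGTG occurs in 6.02% and AGGTCA in 14.02% of windows. Transcripts from the first Cidec start carry 717 coding bases and the longest from the second 747, and counts per gene cannot separate them.

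Genes that act beside these proteins on the droplet surface were read from the same test. The list held 28 genes, among them lipases, their partners and other surface proteins; 26 were tested, 1 passed the threshold, lower in knockout fat, as did 0.128% of all genes, and 0 passed higher, against 0.277% of all genes. The estimates were negative for 19 and positive for 7, with a median log2FC of -0.16 against -0.01 over all genes. Before adjustment 8 of the 26 had an edgeR p under 0.05, against 16.2% of all genes. The groups did not overlap in 4 genes lower in knockout fat (4.54% of all genes) and in 1 higher (4.32%). DESeq2 called 5 of the 26, G0s2, Lgals12, Abhd5, Pnpla3 and Aup1, and 5.47% of all genes. Because the list was chosen with earlier results of these data known, these shares are no test of the list. The gene called in edgeR was Lgals12, a galectin of adipocyte droplets, with 482, 382, 427 and 397 CPM in the wild-type libraries and 293, 244, 265 and 238 CPM in the knockout libraries (log2FC -0.70, SE 0.11, edgeR adjusted p = 0.0360). Every knockout value of Lgals12 lay below every wild-type value. The call was lost in 11 of the 19 alternatives, with an adjusted p of 0.245 without knockout libraries 2 and 3. Of the 8 fits that leave out 1 library, only that without knockout library 1 kept it (adjusted p = 0.0267), and in the others the adjusted p ran from 0.0645 to 0.154.

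G0s2, the inhibitor of adipose triglyceride lipase, had 192, 269, 272 and 299 CPM in the wild-type libraries and 109, 132, 127 and 164 CPM in the knockout libraries. The groups did not overlap, and the difference narrowly missed the threshold (log2FC -0.96, SE 0.16, edgeR adjusted p = 0.0524), while it passed in 6 of the 19 alternatives. The lipase itself, Pnpla2, had 2288 ± 266 and 2061 ± 89.7 CPM (SD, n = 4; log2FC -0.15, edgeR adjusted p = 0.576). Its co-activator Abhd5, the partner of Plin1, had 159 ± 8.88 and 126 ± 12.8 CPM with no overlap (log2FC -0.34, adjusted p = 0.137). Lipe had a log2FC of -0.32 (adjusted p = 0.417). Aup1, a droplet protein with a part in protein degradation, was the other gene of the list near the threshold, with 101 ± 5.27 and 131 ± 6.30 CPM and no overlap (log2FC 0.37, edgeR adjusted p = 0.0698).

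The lowest estimate of the list, named after its values had been seen, was that of Pnpla3, a lipase relative that sits on droplets. Pnpla3 had 317, 350.4, 335 and 316 CPM in the wild-type libraries and 77.3, 135, 128 and 259 CPM in the knockout libraries. Wild-type values were close together and knockout values spread more than 3-fold, with knockout library 4 nearest to wild type (log2FC -1.13, SE 0.30, edgeR adjusted p = 0.140). Cidea, the relative of Cidec in brown fat, was low in all libraries, at 4.97 ± 1.14 and 3.49 ± 1.05 CPM (log2FC -0.52, adjusted p = 0.379). Cideb, another relative, was not tested; it stood at 13.8 and 14.4 CPM in knockout libraries 2 and 3 and at 1.59 CPM or less in the other 6.

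Of the 14 genes of triglyceride synthesis and droplet assembly all were tested and 0 passed the threshold, with 7 estimates above and 7 below 0 and a median log2FC of 0.02. Before adjustment 4 of the 14 had a p under 0.05, against 16.2% of all genes, and the groups were apart in 0 of them, against 8.86% of all genes. These 4 were Dgat1, which adds the last acyl chain of triglyceride (log2FC -0.29, edgeR adjusted p = 0.202), the phosphatidate phosphatase Lpin1 (-0.49, adjusted p = 0.213), and the acyltransferases Agpat1 (0.27, adjusted p = 0.219) and Gpat3 (-0.39, adjusted p = 0.221). Dgat2 ranged from 886 to 2621 CPM among the wild-type libraries alone and gave a log2FC of -0.14 (adjusted p = 0.894). Agpat2, whose loss also causes lipodystrophy, had a log2FC of -0.36 (adjusted p = 0.522). Ldaf1, the partner of seipin, was level at 47.3 ± 2.10 and 47.0 ± 3.32 CPM (adjusted p = 0.965). For reference, the adipocyte genes Adipoq, Fabp4 and Pparg had log2FC of -0.45, -0.23 and -0.23 (adjusted p = 0.218, 0.527 and 0.336).

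**Figure D5:**
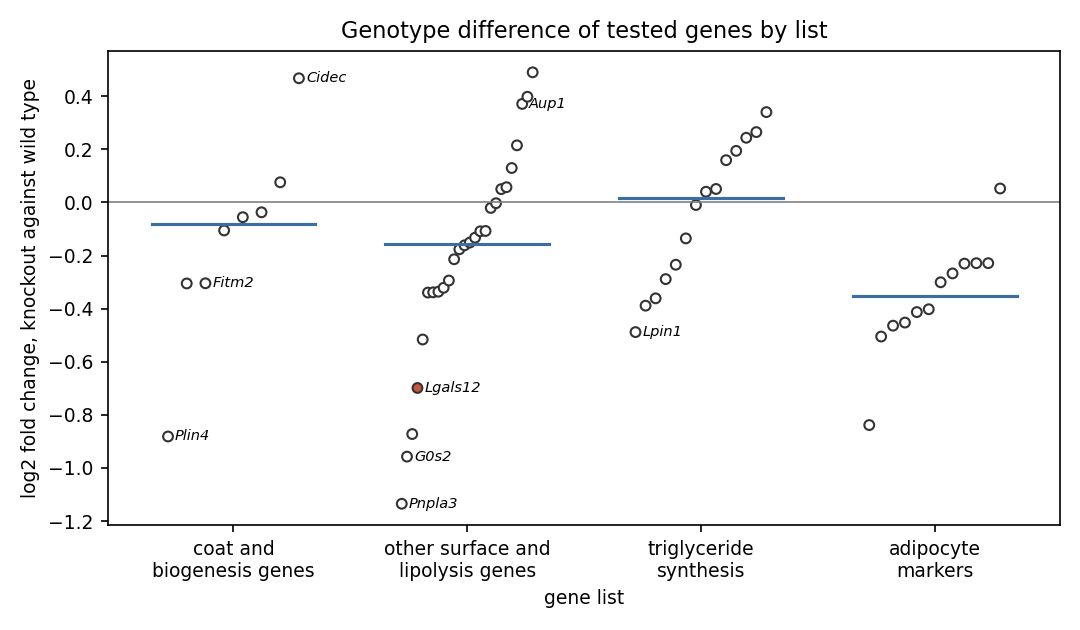
Log2 fold change, knockout against wild type, of each tested gene of 4 lists, with the list median as a line; the filled point is the gene that passed an adjusted p of 0.05 in edgeR, Lgals12. Medians were -0.08 for the coat and biogenesis genes, -0.16 for other surface and lipolysis genes, 0.02 for triglyceride synthesis and -0.35 for adipocyte markers.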

How the data were processed

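The authors deposited 1 table that, per the file headers, gives a read count and an FPKM value for each gene and library. Counts were whole numbers and were used as deposited; all 158499 FPKM values above 0 equalled the count divided by exonic length and library total, within 0.1%. Novoalign 2.8.1, Picard and build mm10 are listed in the submitters' processing notes. Libraries were stranded, per the labels' protocols; the sources used here do not name the counting program, its use of strand or the annotation. Sample titles gave groups and replicate numbers.

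Tests were fitted in R 4.3.3 with edgeR 4.0.16: filterByExpr (minimum count 10; 14800 of 37417 genes kept), TMM, the quasi-likelihood F test without covariates and Benjamini-Hochberg adjustment over all genes tested, called at 0.05; the code was tested on simulated data. Alternatives used other scalings and filters, DESeq2 1.42.0, limma-voom (limma 3.58.1), robust edgeR, a replicate block, libraries left out, and, added after the data had been seen, the mean of 10 duct markers as a covariate. Members and lists were chosen with earlier results of these data known. Named genes were all members, fixed genes of the 2 pathway lists with up to 4 of lowest adjusted p in each, 3 adipocyte references and the 3 nearest profiles of a member; 1 gene that this rule took is not reported here. No pair of libraries of 1 genotype agreed within sampling noise (lowest chi-square per gene 20.8).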

Additional observations from a re-analysis of the deposited data

How the results depend on the processing

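The number of genes called moved widely, from 60 to 810 with DESeq2, 14 with the replicate block, 3 without knockout libraries 2 and 3, 1 with the duct marker covariate and 0 to 290 with 1 library left out (0 without knockout library 2, 290 without knockout library 1). Members called stayed at 0 except for 1 with total library size only (Plin4) and 2 with DESeq2 (Plin4 and Fitm2). Calls among other droplet surface and lipolysis genes were 1 as reported, 2 with upper quartile scaling, 5 with DESeq2, 0 without knockout libraries 2 and 3, 0 with the covariate and 0 to 3 with 1 library left out; those among triglyceride synthesis genes were 0 in all settings. Leaving out libraries lowers the number of samples; otherwise the cause was not tested.

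Estimates of Plin4, Cidec and Fitm2 kept their sign in all 19 alternatives, with Plin4 between -0.97 and -0.64 and adjusted p from 7.818e-07 to 0.599. Signs turned for other genes as follows. With the duct marker covariate the log2FC was 0.0559 for Plin1, 0.148 for Plin2, 0.121 for Plin3 and 0.486 for Dgat2; without knockout libraries 2 and 3 it was 0.0553 for Plin2, 0.0487 for Plin3 and 0.159 for Dgat2. With 1 library left out, Plin3 ranged from -0.149 to 0.0596 (wild-type 3; 0.0422 without wild-type 4, 0.0289 without knockout 3), Plin5 from -0.216 to 0.0891 (knockout 4; 0.0820 without wild-type 4, 0.0645 without knockout 1), Bscl2 from -0.0177 (wild-type 2) to 0.179, Dgat2 from -0.355 to 0.122 (wild-type 3; 0.0325 without wild-type 4, 0.0607 without knockout 3) and Ldaf1 from -0.0433 to 0.0264 (knockout 4). Ldaf1 was 0.00546 with upper quartile scaling, 0.0113 with total library size only, and 0.0141, 0.00199 and 0.0157 without wild-type 3, wild-type 4 and knockout 2.

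Same-numbered libraries did not deviate together as a rule (correlations 0.184, -0.106, -0.254 and 0.0577). Such correlations cannot exclude a shared litter or day, which the sources used here do not give. With the replicate block 14 genes were called, and Plin4 had an edgeR adjusted p of 0.172. Levels under about 1 CPM, such as Fitm1, are limited by depth.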
